A study of Mchenga conophoros with 13 samples.

Results

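Cadherins, protocadherins and Celsr proteins are calcium-dependent adhesion molecules at the surface of cells, and their genes were followed here across spots of the telencephalon of the cichlid fish Mchenga conophoros. Of 32471 features in the deposited matrices, 22249 had at least 1 unique molecular identifier (UMI, a tag that counts 1 captured transcript). Genes were taken by name (cdh followed by a number, pcdh or celsr), which gave 21 features, and 20 of these had at least 10 UMIs over all 13 matrices. The feature left out was cdh15, with 2 UMIs. Related genes that the files list under NCBI numbers alone are not among the 20. The animals were adult males, 2 of them castle-building (B1 and B2) and 2 not building (controls, C1 and C2), and their telencephalon sections were placed on Visium capture areas, slide fields whose barcoded spots take up RNA from groups of cells. B1 is represented by 1 capture area and each of the other males by 4, so for B1 the male and its plane of section cannot be told apart. The paper describes these males as 2 pairs of a building and a control male, matched for size. The labels do not say which males were paired. No strain is given for the animals.

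Classical cadherins of type II (here cdh7, cdh8, cdh11, cdh20 and cdh22) bind partners of the same or a closely related type on the neighbouring cell and are held to the actin skeleton by catenins. T-cadherin (cdh13) has a lipid anchor and no cytoplasmic tail. The delta protocadherins (pcdh7 and pcdh9 of the delta-1 group, pcdh8, pcdh17, pcdh18 and pcdh19 of the delta-2 group) are weaker adhesion molecules that are known in vertebrate brains for patchy expression by nucleus or layer and for roles in axon growth and synapses. Celsr proteins are large cadherins with a receptor-like membrane domain, related to Flamingo of Drosophila, and belong to the planar cell polarity pathway.

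Spots were placed in classes by genes other than these 20. Pallial spots (2365 of 6751) scored above the median of all spots for 7 pallial genes and not for 9 subpallial genes, subpallial spots (2365) did the reverse, and 2021 spots were neither. The classes held the genes they were built on, as the summed level of the pallial list was 1864 to 2073 counts scaled to a common library total (CPM) in pallial spots and 178 to 277 CPM in subpallial spots of the 4 males, and that of the subpallial list 252 to 352 CPM and 2308 to 3164 CPM. Counts were summed per male and class, and CPM here are scaled by the trimmed mean of M-values (TMM) factors of the same fit. Differences were tested over males with edgeR's quasi-likelihood test with the male as a block, fitted on all genes and adjusted by Benjamini-Hochberg over all genes tested. A gene was called at an adjusted p under 0.05. Total UMIs per male ranged from 4634684 in B1 to 25126732 in B2, and the median per spot of a capture area from 1225.5 to 11973. In spots of several cells, more cells of a type and more RNA per cell cannot be told apart.

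Between pallial and subpallial spots, celsr2 and cdh22 were higher in the pallium, and cdh23, pcdh8, pcdh18, cdh20, pcdh7 and pcdh19 were lower there, each in 4 of 4 males. Of the 20 genes, 15 passed the filter on low counts, and 8 of these 15 were called, against 21.9% of all genes tested (10.5% higher and 11.4% lower). The median log2 fold change of the 15 was -0.34, and that of all genes tested was 0.00.

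Celsr2, known from the mouse for roles in dendrite upkeep and in the cilia of ependymal cells, had 62.4, 88.3, 80.5 and 78.7 CPM in the pallial spots of B1, B2, C1 and C2, against 22.5, 29.7, 20.9 and 35.6 CPM in their subpallial spots. The classes did not overlap (log2 fold change 1.50 ± 0.12, SE; edgeR adjusted p = 2.30e-05), and celsr2 was higher in 13 of 13 areas taken singly. Cdh22, a type II cadherin, had 59.3, 53.6, 54.3 and 58.7 CPM in pallial spots and 23.1, 25.6, 25.2 and 43.1 CPM in subpallial spots of the same males. Its pallial levels were close to each other, and among subpallial spots C2 stood highest (log2 fold change 0.93 ± 0.14, SE; edgeR adjusted p = 0.00110; higher in 13 of 13 areas).

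Cdh23, which is part of the tip link of sensory hair cells, had the largest fold change among the 8. It had 1.87, 6.07, 5.31 and 2.55 CPM in pallial spots, against 9.46, 33.1, 22.5 and 16.4 CPM in subpallial spots of B1, B2, C1 and C2 (log2 fold change -2.43 ± 0.17, SE; edgeR adjusted p = 7.79e-06). Levels differed between males in both classes, with B1 lowest and B2 highest, while the ratio was alike. Only 2 of 4 pallial sums of cdh23 reached the limit of the filter on low counts, against 4 of 4 subpallial sums. Pcdh8, whose rat counterpart arcadlin is induced by neuronal activity, had 44.3, 27.2, 20.9 and 32.4 CPM in pallial and 133, 123, 152 and 113 CPM in subpallial spots (log2 fold change -2.08 ± 0.16, SE; edgeR adjusted p = 1.44e-05). Every subpallial value was higher than every pallial one. Pcdh18, a delta-2 protocadherin, had 13.1, 17.4, 13.3 and 14.0 CPM in pallial spots, against 31.3, 39.5, 46.1 and 36.5 CPM in subpallial spots, and was lower in 13 of 13 capture areas (log2 fold change -1.37 ± 0.13, SE; edgeR adjusted p = 5.64e-05).

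Cdh20 had 5.62, 5.79, 6.45 and 8.54 CPM in pallial spots and 7.69, 15.3, 10.7 and 19.5 CPM in subpallial spots, and its classes overlapped between males although each male went the same way (log2 fold change -1.13 ± 0.19, SE; edgeR adjusted p = 0.00211; lower in 13 of 13 areas). Pcdh7 (also called NF-protocadherin, known from axon guidance in Xenopus) had 109, 128, 69.1 and 86.5 CPM in pallial spots, against 161, 161, 183 and 145 CPM in subpallial spots, with the difference largest in C1 (log2 fold change -0.73 ± 0.15, SE; edgeR adjusted p = 0.00549). With capture area C alone, which every male has, its call was lost (log2 fold change -0.28 ± 0.18 (SE), edgeR adjusted p = 0.502). Pcdh19, an X-linked epilepsy gene in humans, had 73.7, 69.7, 70.6 and 84.6 CPM in pallial spots and 84.0, 103, 89.0 and 113 CPM in subpallial spots, a small difference with overlapping classes (log2 fold change -0.40 ± 0.09, SE; edgeR adjusted p = 0.00837). That call was lost without B2 (adjusted p = 0.0538 by edgeR) and without C2 (adjusted p = 0.0653 by edgeR). It was also lost with capture area C alone, without the male as a block and with spots thinned to 2000 UMIs. Of 13 areas taken singly, pcdh19 was lower in 10 and pcdh7 in 11.

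**Figure D1:**
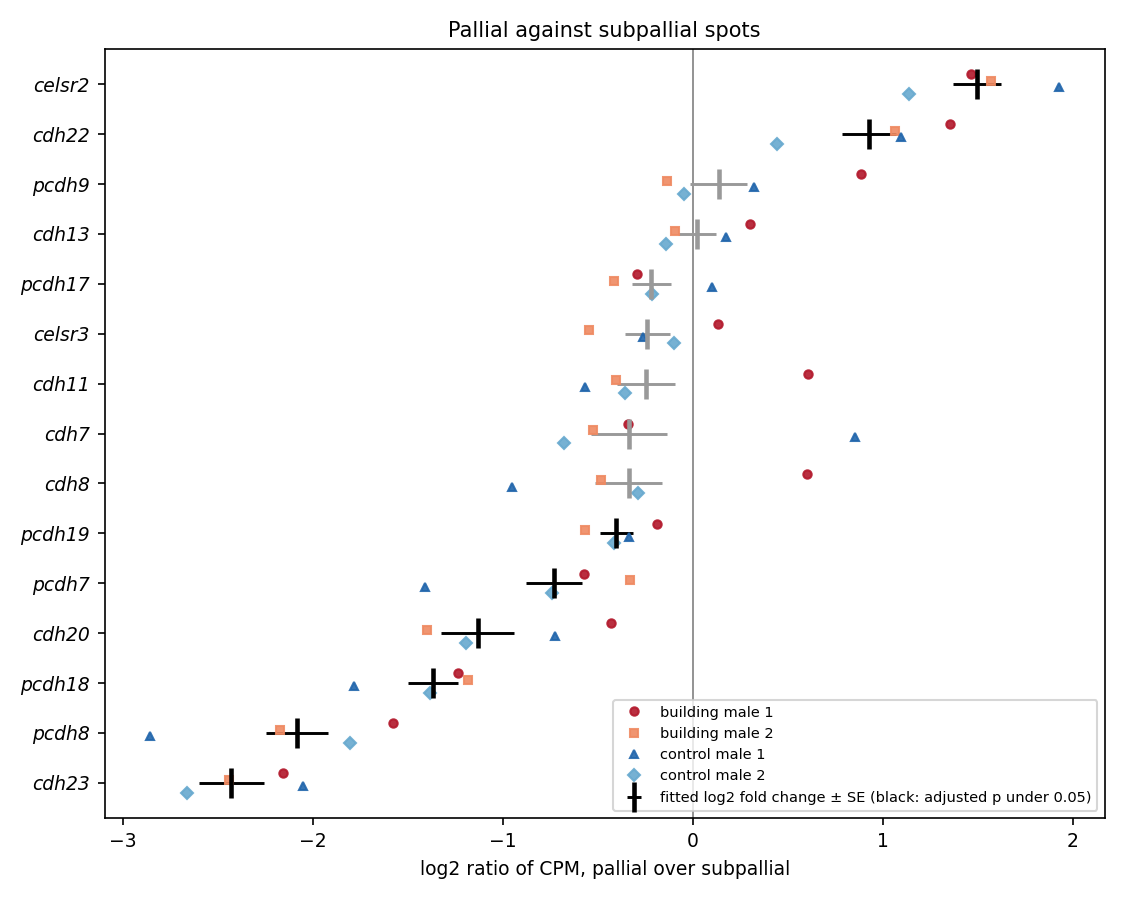
Log2 ratio of CPM in pallial over subpallial spots for the 15 genes tested, with 1 symbol per male and the fitted log2 fold change ± SE as a vertical mark (black where the adjusted p was under 0.05). Celsr2 and cdh22 lie right of 0 in all 4 males, and pcdh19, pcdh7, cdh20, pcdh18, pcdh8 and cdh23 lie left of 0 in all 4.

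The other 7 genes tested were not called. Among the type II cadherins these were cdh7, cdh8 and cdh11, with log2 fold changes of -0.34, -0.34 and -0.25. Without B1, cdh8 (-0.51 ± 0.12 (SE), edgeR adjusted p = 0.0126) and cdh11 (-0.42 ± 0.09 (SE), edgeR adjusted p = 0.00544) were called lower in the pallium. B1 was the male with the opposite direction for both. T-cadherin cdh13 had 57.3 ± 5.52 CPM in pallial and 54.8 ± 3.54 CPM in subpallial spots (SD, n = 4 males). Celsr3, pcdh9 and pcdh17 had log2 fold changes of -0.24, 0.14 and -0.22. By family, 3 of 4 delta-2 protocadherins and 1 of 2 delta-1 protocadherins were lower in the pallium, and none was higher.

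Calls among partners and relatives of the cadherins are given beside the 21.9% of all genes called in this comparison. Of 15 names of the catenin list, which includes the adaptor gene afdn, 8 were found. Of these ctnnal1 was higher and arvcf, pkp4 and afdn were lower in pallial spots. Of 7 tested Fat, Dachsous and calsyntenin genes fat1 and clstn2 were lower, and of 8 tested planar cell polarity genes ptk7 was lower. With 7 or 8 genes tested a list, these counts are no result about the lists. Glial genes moved with the classes too, as 3 of 6 oligodendrocyte genes and 1 of 6 radial glia genes were lower in pallial spots. Without radial glia-rich and oligodendrocyte-rich spots, 8 genes of the family were called, the same 8. That run left out only the spots with the highest glial scores of each capture area. The part of glial RNA in the spots that stayed was not tested. Cdh23 reached the filter's limit in 4 of 4 subpallial and 2 of 4 pallial sums, so it passed through the class where it is high. The filter thus favoured that direction. After every spot was thinned to 2000 UMIs, 5 of the 8 were called among 13 tested.

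Within the pallium, spots rich in neurod6b were set against spots rich in eomesa, transcription factor genes of excitatory neurons (422 pallial spots each). Here 14 of the 20 genes were tested and 9 were called, against 17.2% of all genes tested (7.32% higher and 9.91% lower). Pcdh17 and celsr3 were higher in neurod6b-rich spots, and cdh8, pcdh7, celsr2, pcdh9, cdh11, pcdh19 and pcdh8 were lower. Of these 9, cdh8, pcdh9, cdh11, pcdh17 and celsr3 were not called between pallial and subpallial spots.

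Cdh8, a type II cadherin known from synaptic circuits of the mouse, had 0, 8.68, 3.48 and 13.5 CPM in the neurod6b-rich spots of B1, B2, C1 and C2, against 158, 122, 75.4 and 103 CPM in their eomesa-rich spots. In B1 no UMI was counted in neurod6b-rich spots, and the highest of the 4 neurod6b-rich values was below the lowest eomesa-rich one (log2 fold change -3.62 ± 0.27, SE; edgeR adjusted p = 4.36e-07). Cdh8 entered this test through the class where it is high, as 4 of 4 eomesa-rich but 1 of 4 neurod6b-rich sums reached the filter's limit. Pcdh7 had 52.3, 65.6, 20.9 and 17.3 CPM in neurod6b-rich and 305, 257, 118 and 189 CPM in eomesa-rich spots, 5.71-fold lower (log2 fold change -2.51 ± 0.21, SE; edgeR adjusted p = 1.08e-06). Celsr2 had 41.1, 37.1, 36.5 and 27.6 CPM in neurod6b-rich spots, against 126, 140.2, 146 and 139 CPM in eomesa-rich spots, with little spread between males in either class (log2 fold change -2.03 ± 0.15, SE; edgeR adjusted p = 5.36e-07). All 3 genes were lower in 11 of the 11 capture areas that held at least 5 spots of each class.

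Pcdh9, the other delta-1 protocadherin, had 7.47, 13.02, 17.4 and 15.4 CPM in neurod6b-rich and 24.5, 54.4, 70.4 and 59.1 CPM in eomesa-rich spots, also lower in 11 of 11 areas (log2 fold change -1.99 ± 0.20, SE; edgeR adjusted p = 5.45e-06). Cdh11 had 59.7, 17.4, 34.8 and 62.3 CPM, against 193, 134, 113 and 116 CPM in eomesa-rich spots, with the largest difference in B2 (log2 fold change -1.76 ± 0.26, SE; edgeR adjusted p = 0.000209). For cdh11 the call was lost with capture area C alone (log2 fold change -1.35 ± 0.51 (SE), edgeR adjusted p = 0.181). Pcdh19 had 37.3, 30.9, 43.5 and 61.0 CPM in neurod6b-rich spots and 129.7, 123, 106 and 132 CPM in eomesa-rich spots (log2 fold change -1.52 ± 0.17, SE; edgeR adjusted p = 2.07e-05). Pcdh8 had 22.4, 12.1, 15.7 and 16.1 CPM in neurod6b-rich spots, against 49.1, 31.3, 10.1 and 37.4 CPM in eomesa-rich spots (log2 fold change -1.09 ± 0.26, SE; edgeR adjusted p = 0.00927). It was lower in 3 of 4 males, as the log2 ratio of C1 was 0.55, against -1.07 in B1, -1.36 in B2 and -1.20 in C2, and its call was lost without B2 and without C2.

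Pcdh17, which in the mouse acts at synapses of the basal ganglia and in axon growth, went the other way. It had 93.3, 75.7, 146 and 99.5 CPM in neurod6b-rich spots, against 14.0, 32.7, 52.8 and 30.6 CPM in eomesa-rich spots of B1, B2, C1 and C2 (log2 fold change 1.54 ± 0.18, SE; edgeR adjusted p = 2.23e-05; higher in 11 of 11 areas). The lowest neurod6b-rich value was above the highest eomesa-rich one. Celsr3, known from the mouse for the guidance of axon tracts, had 85.9, 44.8, 57.4 and 71.9 CPM in neurod6b-rich and 59.6, 29.9, 27.7 and 34.8 CPM in eomesa-rich spots, with each male higher but overlapping classes (log2 fold change 0.81 ± 0.17, SE; edgeR adjusted p = 0.00382), and its call was lost without C2 (adjusted p = 0.0817 by edgeR). Both Celsr genes tested and both delta-1 protocadherins were thus called, with celsr2 and celsr3 in opposite directions.

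Among the genes not called was cdh22, which had been called higher in pallial than in subpallial spots. It had 85.9, 38.1, 40.0 and 50.7 CPM in neurod6b-rich and 28.0, 57.2, 77.9 and 62.8 CPM in eomesa-rich spots. Cdh7, cdh13, cdh20 and pcdh18 were not called either, with log2 fold changes from -0.43 to -0.05. Cdh23 did not pass the filter on low counts. It had 2, 27, 11 and 9 UMIs in neurod6b-rich spots, against 1, 6, 0 and 1 UMIs in eomesa-rich spots, and without that filter it was called higher (log2 fold change 2.63 ± 0.55 (SE), edgeR adjusted p = 4.09e-05). In neurod6b-rich spots 4 of 5 tested radial glia genes and 2 of 6 vascular genes were lower. The radial glia list summed to 845 to 1508 CPM in neurod6b-rich and 1245 to 1559 CPM in eomesa-rich spots, and the part of these cells in the cadherin differences was not tested. Of 8 tested genes of the catenin list, ctnna2 and ctnnb1 were lower in neurod6b-rich spots, against 17.2% of all genes called. Cdh8 and pcdh9 passed the filter through eomesa-rich sums, as 1 and 3 of their 4 neurod6b-rich sums reached its limit. For both genes the filter thus favoured the direction that was called.

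**Figure D2:**
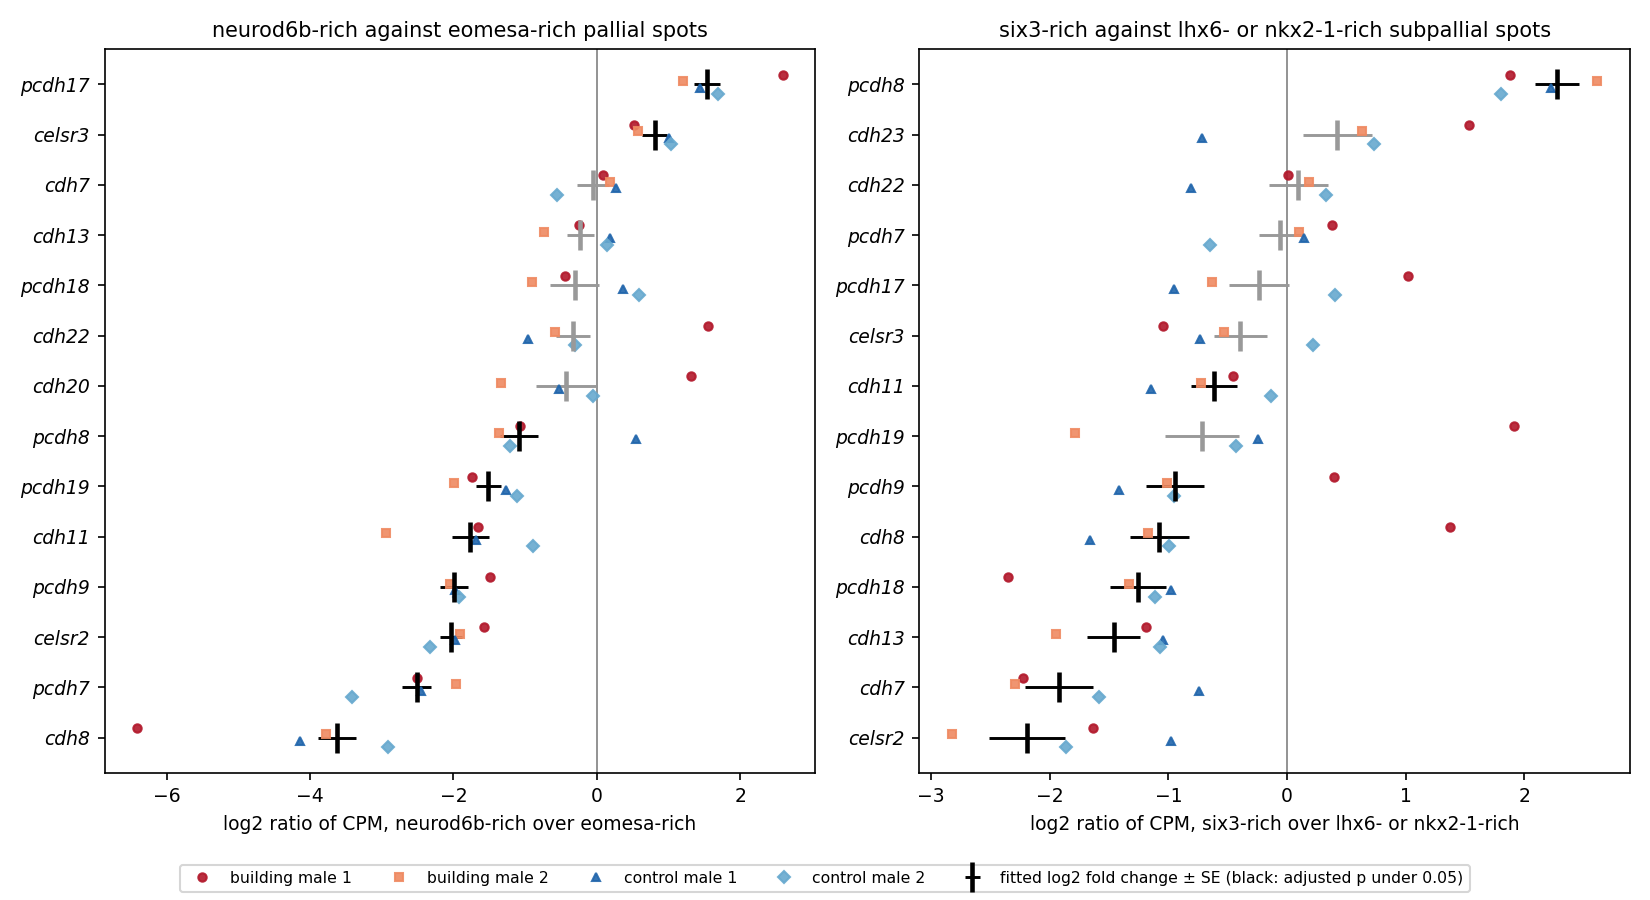
Log2 ratio of CPM for each male (symbols) and fitted log2 fold change ± SE (vertical marks, black where the adjusted p was under 0.05), for neurod6b-rich over eomesa-rich pallial spots (left) and six3-rich over lhx6- or nkx2-1-rich subpallial spots (right). On the left, 6 genes lie left of 0 in all 4 males and pcdh17 and celsr3 right of 0; on the right, pcdh8 is right of 0 in all 4 males, and B1 lies apart for cdh8, pcdh9 and pcdh19.

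Within the subpallium, spots rich in six3 were set against spots rich in lhx6 or nkx2-1 (435 each), where six3 is known in mammals from developing striatal neurons, and nkx2-1 and lhx6 from the medial ganglionic eminence and the interneurons it gives. Of 14 genes tested 8 were called, against 13.6% of all genes tested (5.87% higher and 7.75% lower). Pcdh8 was higher in six3-rich spots, and celsr2, cdh7, cdh13, pcdh18, cdh8, pcdh9 and cdh11 were lower. In B1 the lhx6- or nkx2-1-rich class held 21 spots with 79087 UMIs, the smallest sum of the comparison. There pcdh8, celsr2, cdh7, cdh13, pcdh18 and cdh11 rested on 4, 4, 2, 8, 3 and 8 UMIs, so their B1 ratios are uncertain. In this class the pallial gene slc17a6 stood at 512 CPM in B1, against 112, 106 and 160 CPM in B2, C1 and C2. The subpallial gene dlx5 had 52.5 CPM, against 333, 293 and 345 CPM. Lhx6 had 26.3 CPM, against 192, 247 and 168 CPM, and nkx2-1 263 CPM, against 134, 229 and 116 CPM.

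Pcdh8 had 216, 274, 345 and 189 CPM in the six3-rich spots of B1, B2, C1 and C2, against 52.5, 44.6, 72.4 and 53.4 CPM in their lhx6- or nkx2-1-rich spots. The classes were far apart in every male (log2 fold change 2.27 ± 0.18, SE; edgeR adjusted p = 2.29e-06), and the gene was called in every alternative run for this comparison. Celsr2 had 18.0, 6.33, 8.84 and 15.1 CPM in six3-rich spots and 52.5, 46.1, 18.1 and 56.3 CPM in lhx6- or nkx2-1-rich spots (log2 fold change -2.19 ± 0.32, SE; edgeR adjusted p = 0.000299). Cdh7 had 6.01, 11.4, 8.84 and 21.4 CPM in six3-rich spots, against 26.3, 56.6, 15.1 and 65.2 CPM in lhx6- or nkx2-1-rich spots, with each male lower but overlapping classes (log2 fold change -1.92 ± 0.29, SE; edgeR adjusted p = 0.000344). Without B2 its adjusted p was 0.0584 by edgeR. Both celsr2 and cdh7 reached the filter's limit in 1 of 4 six3-rich sums, against 4 and 3 of 4 lhx6- or nkx2-1-rich sums.

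T-cadherin cdh13, which did not differ between pallium and subpallium by more than the spread between males, had 48.1, 25.7, 33.1 and 37.7 CPM in six3-rich spots and 105, 100.05, 69.4 and 80.1 CPM in lhx6- or nkx2-1-rich spots (log2 fold change -1.46 ± 0.23, SE; edgeR adjusted p = 0.000463). Pcdh18 had 8.01, 21.1, 28.7 and 26.4 CPM, against 39.4, 53.5, 57.3 and 57.8 CPM in lhx6- or nkx2-1-rich spots (log2 fold change -1.26 ± 0.24, SE; edgeR adjusted p = 0.00203), and was not called without B2 (adjusted p = 0.0576 by edgeR). Cdh11 had 80.1, 63.7, 72.9 and 94.3 CPM in six3-rich and 105, 105, 163 and 104 CPM in lhx6- or nkx2-1-rich spots, a small difference (log2 fold change -0.62 ± 0.19, SE; edgeR adjusted p = 0.0459) that was not called without B2, without C1 or by DESeq2.

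Cdh8 and pcdh9 were lower in 3 of 4 males and higher in B1, where they rested on 1 and 2 UMIs in lhx6- or nkx2-1-rich spots. Of 12 areas taken singly, cdh8 was lower in 8, pcdh9 in 9 and cdh11 in 7. The log2 fold change was -1.08 ± 0.25 (SE) for cdh8 (edgeR adjusted p = 0.00894) and -0.94 ± 0.24 (SE) for pcdh9 (edgeR adjusted p = 0.0170), and both calls were lost without B2, without C1 and without C2. Cdh20 had too few UMIs in this comparison for the filter, with 8.01, 5.91, 4.42 and 8.80 CPM in six3-rich spots and 0, 27.9, 27.1 and 44.5 CPM in lhx6- or nkx2-1-rich spots. Without B1, where no cdh20 UMI was counted in lhx6- or nkx2-1-rich spots, it was called lower in six3-rich spots (log2 fold change -2.29 ± 0.33 (SE), edgeR adjusted p = 0.000188), and so was pcdh19 (-0.97 ± 0.25 (SE), edgeR adjusted p = 0.0141). Oligodendrocyte genes (4 of 5 tested) and radial glia genes (3 of 5) were lower in six3-rich spots, with a summed oligodendrocyte level of 92.2 to 383 CPM in six3-rich spots and 525 to 1418 CPM in lhx6- or nkx2-1-rich spots. Their part in the cadherin differences was not tested. Celsr2, pcdh18 and cdh7 passed the filter mainly through lhx6- or nkx2-1-rich sums, as 1, 3 and 1 of their 4 six3-rich sums reached its limit. For these genes the filter thus favoured the direction that was called. Of 6 tested genes of the catenin list, pkp4 was higher and ctnna2, ctnnb1 and arvcf were lower in six3-rich spots, against 13.6% of all genes called.

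Over the 4 classes, each with the level as CPM of the summed counts without TMM scaling, celsr2 was highest in eomesa-rich spots at 133 ± 8.70 CPM (mean ± SD, n = 4 males here and below). It had 41.0 ± 16.5 CPM in lhx6- or nkx2-1-rich spots and 35.2 ± 5.30 CPM in neurod6b-rich spots, which did not differ by more than their spread, and 11.7 ± 5.23 CPM in six3-rich spots. Cdh8 was high in a pallial and a subpallial class, with 111 ± 33.3 CPM in eomesa-rich and 86.1 ± 52.3 CPM in lhx6- or nkx2-1-rich spots, whose ranges over males overlapped, and had 46.7 ± 3.58 CPM in six3-rich and 6.40 ± 5.93 CPM in neurod6b-rich spots. Pcdh8 had 248 ± 66.4 CPM in six3-rich spots, and its next level was 52.7 ± 11.2 CPM in lhx6- or nkx2-1-rich spots. Pcdh7 and pcdh9 were lowest in neurod6b-rich spots, at 38.6 ± 23.5 and 13.2 ± 4.32 CPM. The highest mean of pcdh7 was in eomesa-rich pallial spots, at 211 ± 79.1 CPM. It had 140 ± 48.7 CPM in six3-rich and 135 ± 41.5 CPM in lhx6- or nkx2-1-rich spots. Pcdh19 too had its highest mean in eomesa-rich spots, at 119 ± 11.7 CPM. It had 107 ± 57.3 CPM in lhx6- or nkx2-1-rich and 90.9 ± 30.6 CPM in six3-rich spots. For both genes the ranges over males of these classes overlapped. Pcdh17 was lowest in eomesa-rich spots at 31.5 ± 15.3 CPM, and its levels in the other 3 classes overlapped between males. These orders were read from the values and were not tested beyond the comparisons above.

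**Figure D3:**
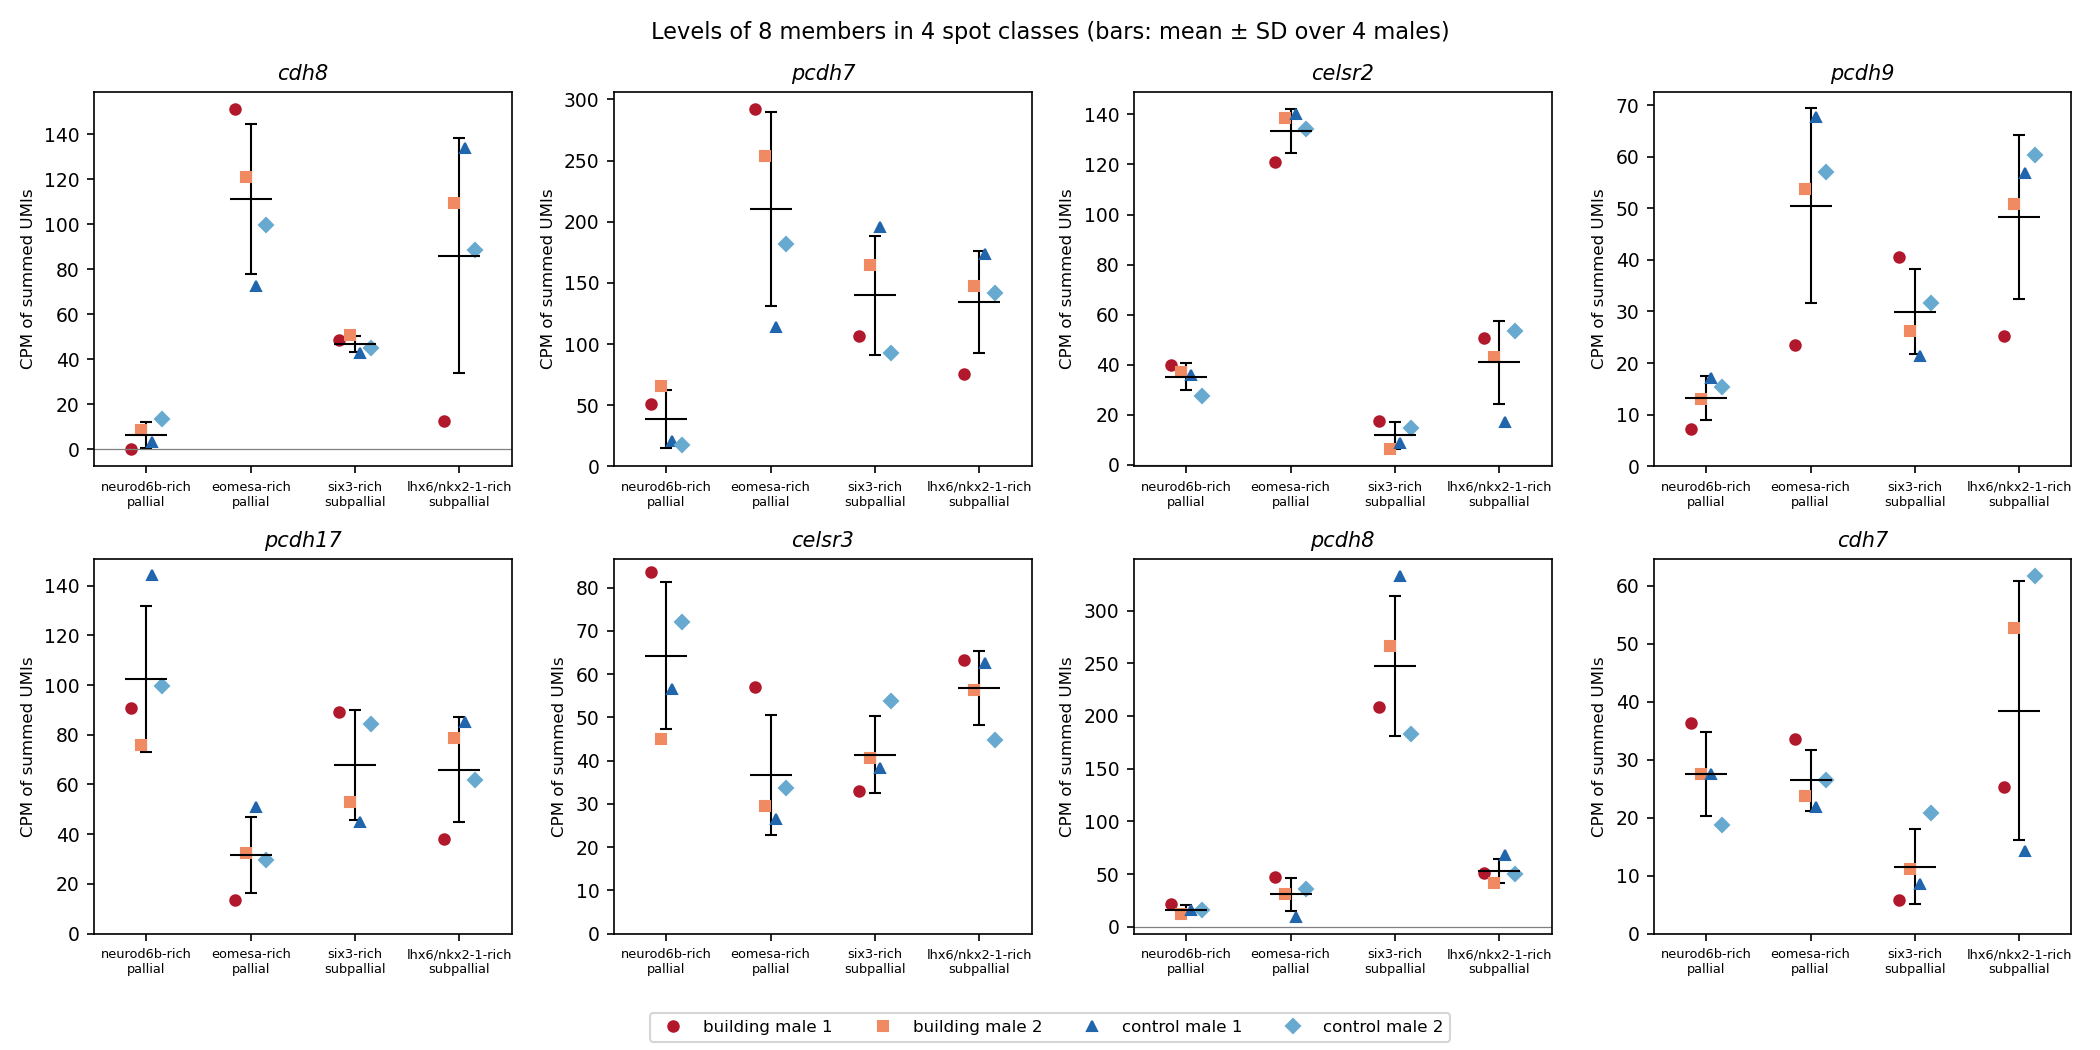
CPM of summed UMIs in neurod6b-rich and eomesa-rich pallial spots and in six3-rich and lhx6- or nkx2-1-rich subpallial spots, with 1 symbol per male and the mean ± SD over 4 males as bars, for 8 genes. Pcdh8 stands high in six3-rich spots, celsr2 in eomesa-rich spots, and cdh8 is near 0 in neurod6b-rich spots of all 4 males.

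Pcdh17, pcdh20 and pcdh9 are neighbours in the RefSeq annotation of a Mchenga conophoros male genome (M_conophoros_male_GT1.1), another assembly than that of the files. They lie on the same linkage group with 4 other genes between pcdh17 and pcdh20 and 8 between pcdh20 and pcdh9. Of the 20 genes 14 have an entry of that symbol there. Within the pallium pcdh17 was higher and pcdh9 lower in neurod6b-rich spots, while pcdh20 had 23 UMIs in all and was not tested in any comparison. Symbols such as pcdh7, pcdh8, pcdh18 and celsr1 have no entry of that exact name there, so which copy of a duplicated gene these features are was not settled.

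In radial glia-rich spots, the 10% of spots of each capture area with the highest score for cyp19a1, fabp7, gfap, id1, s100b and slc1a3 (676 spots), cdh20 had the largest log2 fold change of the family. Of 15 genes tested 5 were called, 4 higher and 1 lower, against 19.0% of all genes tested (11.8% higher and 7.23% lower). Radial glia are the stem-like glia that line the ventricle of the fish telencephalon. Cdh20 had 14.0, 31.0, 15.9 and 21.5 CPM in the radial glia-rich spots of B1, B2, C1 and C2, against 6.01, 7.57, 8.19 and 9.46 CPM in other spots, without overlap (log2 fold change 1.51 ± 0.24, SE; edgeR adjusted p = 0.000391; higher in 12 of 13 areas). Those values rest on 7, 85, 9 and 29 UMIs in radial glia-rich spots.

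Cdh7 had 26.0, 42.3, 21.2 and 30.3 CPM in radial glia-rich and 19.0, 25.4, 16.4 and 22.0 CPM in other spots, higher in 4 of 4 males (log2 fold change 0.56 ± 0.16, SE; edgeR adjusted p = 0.0235). Pcdh18 and cdh13 were called higher with 3 of 4 males in that direction, with B1 lower for both (log2 fold change 0.58 ± 0.19 (SE), edgeR adjusted p = 0.0421 for pcdh18, and 0.40 ± 0.13 (SE), edgeR adjusted p = 0.0426 for cdh13). Pcdh8 was lower, with 58.0, 38.3, 40.7 and 45.1 CPM in radial glia-rich spots, against 82.0, 69.8, 71.4 and 57.6 CPM in other spots (log2 fold change -0.64 ± 0.13, SE; edgeR adjusted p = 0.00262). Without B2, 2 genes were called, cdh20 and pcdh8. Without C2, 3 genes were called, these 2 and cdh8 (log2 fold change 0.63 ± 0.20 (SE), edgeR adjusted p = 0.0452), which was not called in the main setting. The calls of cdh7, pcdh18 and cdh13 were thus lost without B2 and without C2, and they were lost with DESeq2 as well. Of 13 areas taken singly, cdh7 was higher in 9, cdh13 in 9 and pcdh18 in 10, and pcdh8 was lower in 10.

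Radial glia-rich spots were unevenly spread over the regions, as 47.9% of them were subpallial and 23.5% pallial, and cyp19a1, 1 gene of the list, was itself lower in pallial spots. Within pallial spots none of 14 genes tested was called by edgeR, with 5 at an unadjusted p under 0.05, and the log2 fold change of cdh20 was 1.16 ± 0.46 (SE), edgeR adjusted p = 0.104. Within subpallial spots that of cdh20 was 1.38 ± 0.27 (SE), edgeR adjusted p = 0.00120. With male and region as a block, cdh20 was called (edgeR adjusted p = 0.000558) and cdh7 was not (edgeR adjusted p = 0.222), while pcdh9 was called higher (0.73 ± 0.16 (SE), edgeR adjusted p = 0.00328). Within subpallial spots pcdh9 (0.87 ± 0.20 (SE), edgeR adjusted p = 0.00470) and pcdh17 (0.55 ± 0.17 (SE), edgeR adjusted p = 0.0358) were called higher as well. A second radial glia list (gli3, lrig1, fgfr2 and a feature known by its NCBI number) gave a log2 fold change of 0.27 ± 0.25 (SE), edgeR adjusted p = 0.585 for cdh20. With marker names matched as written, without the pairing by NCBI number, 1 of the 5 genes was called, pcdh8, and cdh20 had 0.82 ± 0.28 (SE), edgeR adjusted p = 0.0548. The higher level of cdh20 was thus called over all spots and within subpallial spots with the first list, and neither within pallial spots, nor with the second list, nor with names as written.

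Other cell types moved with this class. Microglia genes summed to 20.8 to 50.0 CPM in radial glia-rich spots, against 13.3 to 15.0 CPM in other spots, and fibroblast and meninges genes to 12 to 41.4 CPM, against 2.41 to 5.94 CPM. Of these lists 3 of 9 and 4 of 7 names were found, and 2 of 2 microglia genes and 1 of 1 fibroblast gene tested were higher. Of csf1r, mpeg1 and coro1a for microglia, mpeg1 had no UMI in the radial glia-rich spots of C1. Of col1a1, col1a2, lum and ogn, lum and ogn had none in those of B1. Their part in the differences was not tested. Of the 8 genes of the catenin list tested, ctnna1, ctnnb1 and arvcf were higher in radial glia-rich spots. Of 7 tested Fat, Dachsous and calsyntenin genes fat4 was higher and 1 was lower. Of 8 tested planar cell polarity genes the receptor gene fzd6 was higher and 1 was lower. Of all genes tested here 19.0% were called. With 7 or 8 genes tested a list, these counts are no result about the lists.

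**Figure D4:**
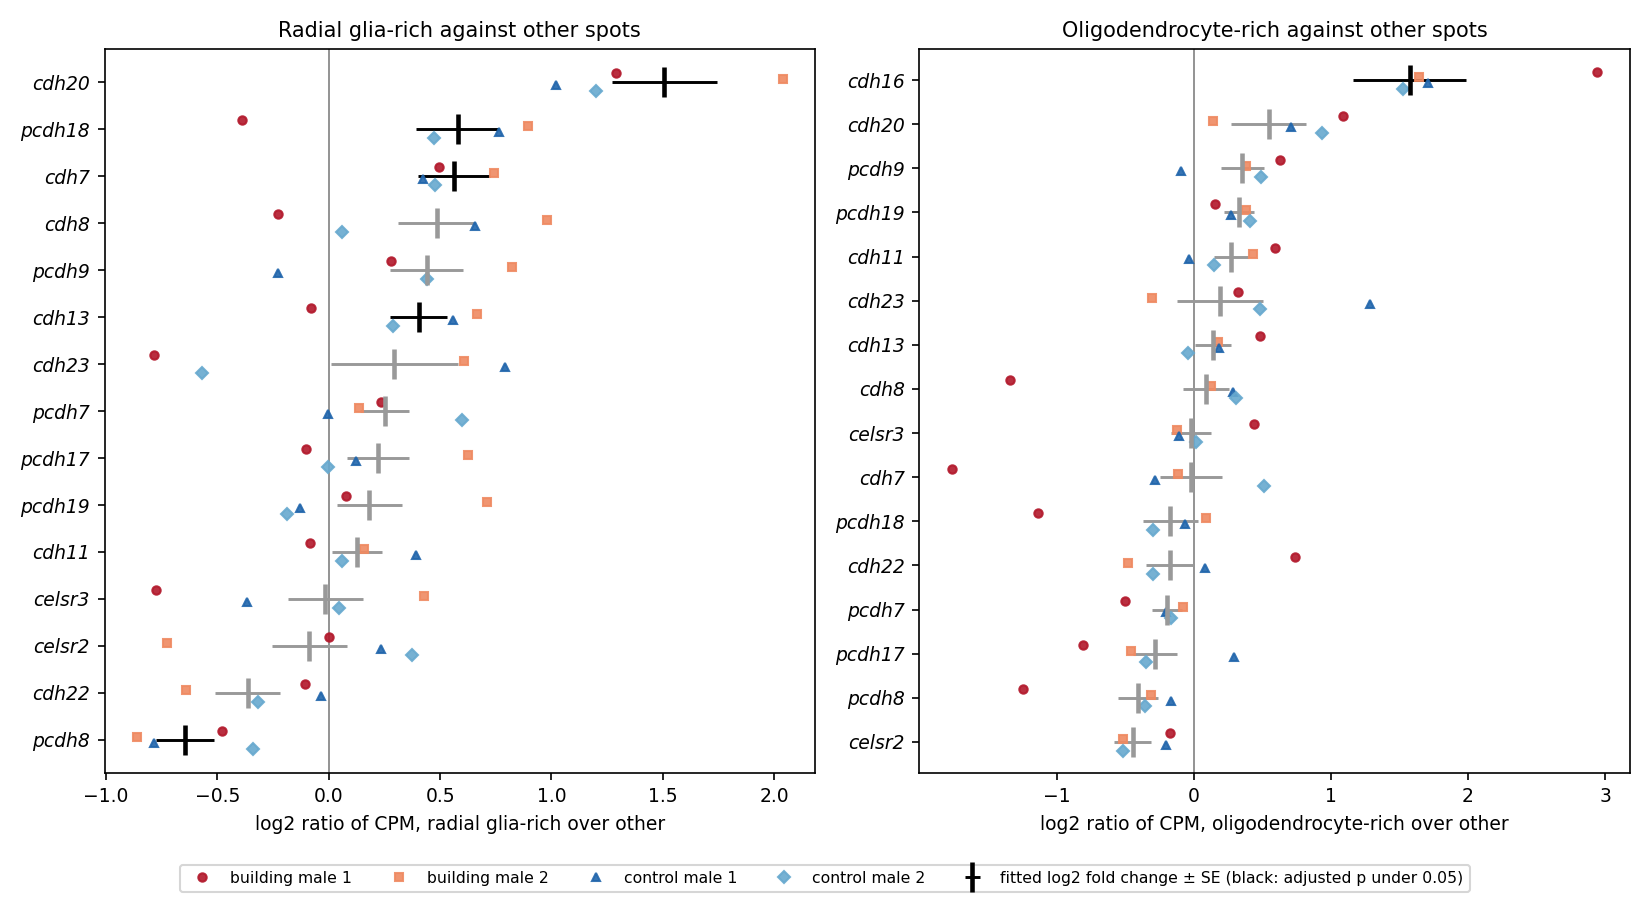
Log2 ratio of CPM for each male (symbols) and fitted log2 fold change ± SE (vertical marks, black where the adjusted p was under 0.05), for radial glia-rich over other spots (left) and oligodendrocyte-rich over other spots (right). Cdh20 on the left and cdh16 on the right lie right of 0 in all 4 males, and most other genes spread around 0.

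In oligodendrocyte-rich spots, chosen in the same way by mpz, plp1b, mbpa, sox10, olig1 and olig2 (676 spots), 1 of 16 genes tested was called, against 5.97% of all genes tested (3.97% higher and 2.00% lower). This was cdh16, known in mammals as kidney-specific cadherin. It had 3.99, 8.53, 4.33 and 4.19 CPM in the oligodendrocyte-rich spots of B1, B2, C1 and C2, against 0.667, 2.80, 1.57 and 1.57 CPM in other spots, without overlap (log2 fold change 1.58 ± 0.41, SE; edgeR adjusted p = 0.0256). The values rest on 1, 15, 2 and 5 UMIs in oligodendrocyte-rich spots, and the call was lost without B2 (adjusted p = 0.359 by edgeR) and without C2 (adjusted p = 0.122 by edgeR). It passed the filter on low counts, which asks for 4 sums at 3.21 CPM here, only through the class where it is high (4 of 4 oligodendrocyte-rich sums and 0 of 4 other sums). The filter thus favoured a difference in this direction, and the call of cdh16 is no support. Without capture area C of C1 the gene did not pass the filter, and within subpallial spots, which hold 45.7% of oligodendrocyte-rich spots, the log2 fold change was 1.18 ± 0.55 (SE), edgeR adjusted p = 0.279. The fits within regions called other genes in its place, pcdh8 lower within subpallial spots (-0.98 ± 0.18 (SE), edgeR adjusted p = 0.000425) and pcdh7 lower within pallial spots (-1.08 ± 0.27 (SE), edgeR adjusted p = 0.0124). Oligodendrocyte-rich spots held fewer UMIs, 3160, 6878, 2989 and 7238 per spot in B1, B2, C1 and C2, against 6077, 9600, 3971 and 9760 in other spots, and the part of this in the result was not tested. Genes of other cell types moved with the class too. Of the radial glia list gfap was higher and fabp7 lower, and of 8 vascular genes tested kdr and egfl7 were higher, with a summed vascular level of 165 to 268 CPM in oligodendrocyte-rich and 122 to 156 CPM in other spots. Microglia genes summed to 26.0 to 31.9 CPM, against 14.5 to 17.3 CPM in other spots, with 0 of 2 called by edgeR. The subpallial gene nkx2-1 was higher and the neuronal gene elavl4 was higher as well. Their part was not tested. With 1 to 15 UMIs a male, no firm level can be given. Celsr2 had 47.9, 46.1, 47.6 and 48.6 CPM in oligodendrocyte-rich and 56.0, 66.3, 56.1 and 70.2 CPM in other spots, and pcdh19 83.9, 105, 93.1 and 109 CPM and 76.9, 81.1, 78.0 and 82.4 CPM. Both kept their direction in 4 of 4 males without passing the test (edgeR adjusted p = 0.0624 for celsr2 and 0.0944 for pcdh19).

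Between building and control males, over all spots of a male, none of the 17 genes tested was called by edgeR (0% of all 15532 genes tested), 1 had an unadjusted p under 0.05, and DESeq2 called none of them. Over all genes 306 had an unadjusted p under 0.05 by edgeR, and DESeq2 called 17. The cadherin gene with an unadjusted p under 0.05 was pcdh7, with 122 and 137 CPM in B1 and B2, against 106 and 97.5 CPM in C1 and C2 (log2 fold change 0.35 ± 0.13 (SE); edgeR unadjusted p = 0.0397, adjusted p = 1). Pcdh17 had 51.9 and 45.8 CPM in building males and 73.3 and 53.4 CPM in control males (log2 fold change -0.37 ± 0.19 (SE)). The 5 genes with most UMIs were pcdh7, pcdh19, cdh11, pcdh8 and celsr2, and besides pcdh7 their log2 fold changes were -0.03 ± 0.12 (SE), -0.07 ± 0.12 (SE), 0.21 ± 0.16 (SE) and -0.04 ± 0.16 (SE) in that order. Over the 17 genes they ran from -0.37 to 0.49. Markers of the regions differed between the conditions too. The subpallial list summed to 1194 to 1504 CPM in building males, against 886 to 1030 CPM in control males. The pallial list summed to 1077 to 1163 CPM in building males, against 1235 to 1309 CPM in control males. No gene of either list was called by edgeR. Pcdh7 was itself higher in subpallial spots, and the part of region content in its difference was not tested.

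The pallial against subpallial difference was also compared between conditions, in 1 fit with the class effect of each condition. Of 16 genes tested none was called by edgeR (0% of 13484 genes, of which 404 had an unadjusted p under 0.05), 1 of the 16 had an unadjusted p under 0.05, and DESeq2 called none of the 16 and 1 of all genes. For pcdh7 the difference was 0.61 ± 0.23 (SE) on the log2 scale (edgeR unadjusted p = 0.0300, adjusted p = 1), from log2 ratios of -0.57 and -0.32 in B1 and B2, against -1.40 and -0.73 in C1 and C2. Without B1 pcdh7 was called (adjusted p = 0.0414 by edgeR), and without B2 cdh11 was called (log2 fold change 1.04, adjusted p = 0.0341 by edgeR), in each case with 1 building male left, whose spread was taken to be that of the other males. With capture area C alone the difference for pcdh7 was -0.43 ± 0.40 (SE), edgeR adjusted p = 1.

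**Figure D5:**
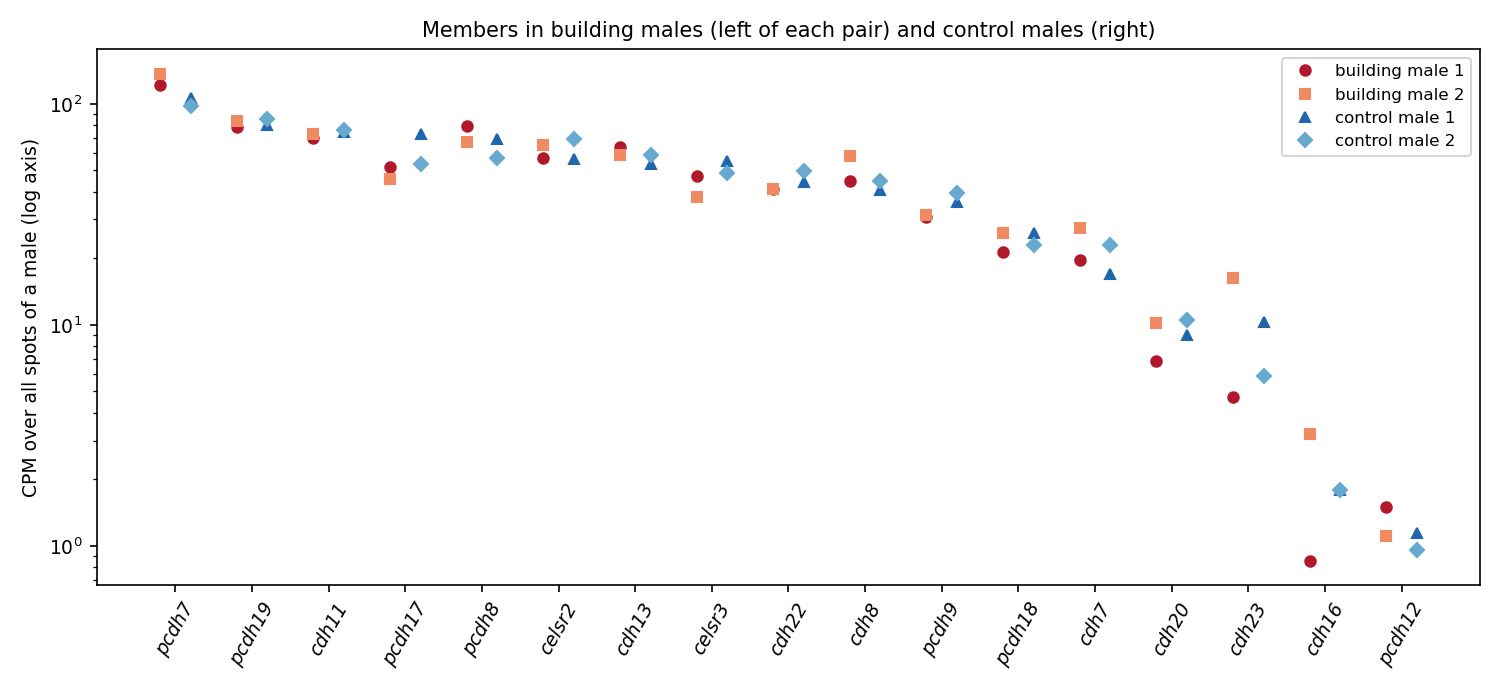
CPM over all spots of each male for the 17 genes tested between conditions (log axis), with building males left and control males right of each gene's mark. Building and control values lie close together for most genes. Both building values are above both control values for pcdh7 and cdh13. They are below both control values for pcdh9, pcdh17, cdh11, cdh22 and celsr3. None of these differences was called by edgeR. The share of all genes separated in this way was not counted, so the order of these values is no result about the family.

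The genes with few UMIs were described by counts only. Pcdh20 had 23 UMIs over all spots, cdh17 (liver-intestine cadherin of mammals) 12 and celsr1 10, and none of them was tested in any comparison. Pcdh12, known from vascular endothelium in mammals, had 57 UMIs and was tested between conditions only. Cdh16 had 124 UMIs, with 1, 13, 1 and 8 in pallial spots and 1, 56, 7 and 17 in subpallial spots of B1, B2, C1 and C2, and without the filter on low counts it was called lower in pallial spots (log2 fold change -2.21 ± 0.41 (SE), edgeR adjusted p = 4.51e-05).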

How the data were processed

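Visium sections of 4 males (13 capture areas) were analysed. The authors deposited raw UMI counts per feature and spot, made with Space Ranger 1.3.1 against the M. zebra UMD2a reference; no normalization was applied. Spots with 0 UMIs were left out (6755 to 6751 spots, 51779064 UMIs). A spot's list score was the mean Pearson residual of sctransform 0.4.2 over genes found in at least 5 spots. Class sums of at least 20 spots per male were tested in R 4.3.3 by the quasi-likelihood method of edgeR 4.0.16, with TMM factors, filterByExpr, the male as block and Benjamini-Hochberg adjustment over all genes. The SE given with an edgeR log2 fold change was derived from the test, as the absolute log2 fold change over the square root of its F statistic. DESeq2 1.42.0 was an alternative. Ratios per male and per capture area used counts plus 0.5. The fit with the male as block was run on simulated counts made from random equal splits of the spots of the 4 males. Fits between conditions and classes of unequal size were not simulated.

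Members, lists and spot classes were chosen with earlier results of these data known. Genes given full statistics were members called with the same sign in all 4 males and the 5 members with most UMIs. Marker names were to be matched as written; 14 markers appear only under NCBI numbers and were paired through the numbers of the study's supplementary tables, a departure from the planned rule made after seeing the files. The planned matching was therefore run as an alternative, added after seeing the data. Glia-rich spots were the top 10% of each area, and neurod6b-, eomesa-, six3- and lhx6- or nkx2-1-rich spots the top 20% of their region for that gene or list and not for the one they were set against. The fit between conditions had no block. The region limits, top shares, depth (2000 UMIs), marker lists, filter, block, capture areas and males were varied. Capture areas share spot barcodes by design (2717 different ones among all spots), so a spot was identified by area and barcode. Positions of spots were not used here.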

Additional observations from a re-analysis of the deposited data

Results flagged for a closer look

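Among 31 differences of single genes that were called between spot classes, 3 had a male whose log2 ratio stood far from the other 3, measured by its gap as a share of the range (Dixon's test). Chance marks about 1 in 20 such groups. For cdh16 in oligodendrocyte-rich against other spots, B1 had 2.94, against 1.52 to 1.71 in the other males, from 1 and 3 UMIs. For pcdh8 in neurod6b-rich against eomesa-rich spots, C1 had 0.55, against -1.36 to -1.07 in the other males, from 9 and 4 UMIs. For cdh13 in six3-rich against lhx6- or nkx2-1-rich spots, B2 had -1.95, against -1.18 to -1.05 in the other males, from 61 and 258 UMIs. No gene of the family was called between conditions over all 4 males.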

How the results depend on the processing

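Of the 31 differences of single genes, 26 went the same way in all 4 males and 13 were called again, with the same sign, in every alternative that gave a value. The 31 were picked by tests on these same males, so their shared direction is partly built in. That share among all called genes was not counted. Over the alternatives, 5 to 11 genes were called between pallial and subpallial spots (8 in the main setting; 5 after thinning to 2000 UMIs), and 6 to 10 within the pallium (9 in the main setting). The count for radial glia-rich spots (5) was 2 with DESeq2, 1 with capture area C alone and 0 within pallial spots. With the second list it was 1 and none of the 5 was kept. That gene was celsr2, called higher (log2 fold change 0.37 ± 0.10 (SE), edgeR adjusted p = 0.0166). Without cyp19a1 the count was 3, namely cdh20, pcdh8 and cdh23. Cdh23 is not among the 5 and was called lower (-1.24 ± 0.37 (SE), edgeR adjusted p = 0.0262). With marker names matched as written the count was 1. That was the matching first planned, of which pairing by NCBI number is a departure made after seeing the files. For radial glia-rich spots cdh7 turned its sign within pallial spots (-0.16) and without cyp19a1 (-0.0098), and pcdh8 within pallial spots (0.50). The count for oligodendrocyte-rich spots (1) was 0 with DESeq2, with log-normalized scores, with the top 5%, without capture area C of C1, with capture area C alone and with male and region as a block, 3 without the filter, 4 with the top 20% and 2 with names as written, pcdh19 and pcdh8 and not cdh16. The count for six3-rich spots (8) was 5 with DESeq2 and 1 with capture area C alone. The cause of these moves was not tested. Leaving out each male gave 7 to 11 genes between pallial and subpallial spots, 2 to 6 for radial glia-rich, 0 to 2 for oligodendrocyte-rich, 7 to 10 for neurod6b-rich and 2 to 10 for six3-rich spots, 0 between conditions and 0 to 1 for the difference between conditions. Without the male as a replicate block, 7 genes were called between pallial and subpallial spots, 2 for radial glia-rich, 0 for oligodendrocyte-rich, 9 for neurod6b-rich and 7 for six3-rich spots. For the spot classes, the share of all genes called in each alternative is not given here. A change in these counts is therefore no result about the family.

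With the replicate number as a replicate block, 0 genes of the family were called between building and control males, as without it. Over all genes that comparison gave 0 calls in the main setting, 17 with DESeq2, 62 without the filter, 74 without B1 and 173 without B2. The labels do not say that a number pairs males, and deviations of same-numbered males from their group means had a correlation of 0.229 over 15532 genes. Depth limits cdh16, cdh20, cdh23 and every gene with under 60 UMIs.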
